A study of Homo sapiens with 16 samples.

Results

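Tenascin C and 5 other secreted matrix genes were followed in MCF10A cells, a human breast epithelial line that was immortalized without a viral oncogene and forms no tumours. The 6 genes, *TNC*, *TINAGL1*, *THBS1*, *FN1*, *TGFBI* and *SPARC*, were read by symbol from the 26475 entries of the count table, and all 6 passed the filter on low counts. *TNC* and *TINAGL1* were selected because their values in these libraries were higher with a DDR1 inhibitor than with a RUNX inhibitor. Their differences between groups that involve inhibitor libraries are therefore given as a description, with no test, and no member was tested in DDR1i against RUNXi. The other 4 genes were grouped with them as matricellular genes.

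RNA-seq was performed on 16 libraries in 4 groups of 4, and every group received vehicle or inhibitor for 48 h. The control group received DMSO vehicle and no collagen. The collagen group received vehicle with collagen 1 at 0.05 mg/mL for the last 24 h, in medium with NaOH to polymerize it, so that collagen and NaOH cannot be told apart. The DDR1i group received the same collagen with 2 μM DDR1-IN-1, a small molecule inhibitor of the collagen receptor kinase DDR1, and the RUNXi group the same collagen with 5 μM AI-10-104, which blocks binding of RUNX factors to their partner CBFβ. No library received an inhibitor without collagen, and all came from 1 cell line, so that the tests measure the spread between these libraries, which may be technical.

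Matricellular proteins are secreted into the extracellular matrix, where they bind matrix proteins, integrins and growth factors and alter how cells adhere, rather than bearing load as the fibrillar collagens do. In the breast, tenascin C is best known from remodelling tissue and from tumour stroma, and thrombospondin 1 and fibronectin are made by epithelial cells as well as by fibroblasts. Thrombospondin 1 can activate latent TGF-β, and TGFBI is named for its induction by that growth factor.

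RUNX proteins recognize a short DNA motif, written here as TGTGGT or TGCGGT on either strand. It was searched in the 250 bases before the RefSeq start sites of the 6 genes (GRCh38.p14, a different build from the GRCh37 of the counts). Of 35116 promoters of this length, 16.3% held either form. *TINAGL1* and *SPARC* each held 1 match, both TGCGGT on the opposite strand, beginning 220 and 189 bases before the start. The second start site of *TINAGL1* and the windows of *TNC*, *THBS1*, *FN1* and *TGFBI* held none. Shown are *TNC* and *TINAGL1*, the genes selected on the inhibitor libraries, and *SPARC*, the other gene with a match. Each runs 5′ to 3′ on the strand of the gene, with the match in capitals. They lie at chr9:115118158-115118407 (minus strand), chr1:31576265-31576514 (plus strand) and chr5:151686916-151687165 (minus strand). A match is a description of the letters, not evidence of binding.
TNC: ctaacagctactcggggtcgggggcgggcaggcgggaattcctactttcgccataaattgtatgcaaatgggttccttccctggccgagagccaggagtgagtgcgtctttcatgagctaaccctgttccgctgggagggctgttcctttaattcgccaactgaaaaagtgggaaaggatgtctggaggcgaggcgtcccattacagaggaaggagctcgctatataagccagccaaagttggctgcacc
TINAGL1: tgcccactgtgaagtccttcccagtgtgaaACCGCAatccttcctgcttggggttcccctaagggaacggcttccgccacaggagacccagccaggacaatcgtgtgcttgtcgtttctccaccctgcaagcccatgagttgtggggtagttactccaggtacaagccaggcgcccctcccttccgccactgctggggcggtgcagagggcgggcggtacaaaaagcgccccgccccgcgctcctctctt
SPARC: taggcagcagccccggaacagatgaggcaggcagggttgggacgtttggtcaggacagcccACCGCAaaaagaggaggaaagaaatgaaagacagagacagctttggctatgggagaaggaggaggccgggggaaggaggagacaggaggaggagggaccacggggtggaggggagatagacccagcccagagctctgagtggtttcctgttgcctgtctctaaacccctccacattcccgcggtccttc

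Total counts ranged from 12184619 to 44332378 per library, and the lowest count of any of the 6 genes in a library was 189 (*TNC*, RUNXi replicate 1), where counting error alone gives a coefficient of variation of 7.27%. Levels are given as normalized CPM, read counts scaled to library size with TMM factors over all 16 libraries. Collagen replicate 3 was removed by the authors as an outlier, and is left out of the fits below, but its values are shown. The label of an epithelial line was checked against markers. All 8 epithelial markers were detected, with a summed level between 10061 and 20285 CPM. The 7 fibroblast markers together reached at most 32.9 CPM, and *COL3A1* and *PDGFRA* had under 10 counts over all libraries. The endothelial sum reached 2.40 CPM at most, and of the 2 leukocyte markers *PTPRC* had under 10 counts over all libraries, while *CD68* ranged from 8.53 to 28.7 CPM.

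*TNC* encodes tenascin C, a large hexameric glycoprotein that weakens attachment of cells to fibronectin (chromosome 9, 117781854 to 117880486, GRCh37, minus strand, canonical transcript of 8500 bases). Its level was 29.6, 29.0, 30.5 and 24.1 CPM in control replicates 1 to 4, and 25.5, 22.7 and 20.6 CPM in collagen replicates 1, 2 and 4. Collagen replicate 3 had 48.1 CPM, above every control library and above 3 of the 4 DDR1i libraries. With DDR1i the level was 41.9, 46.2, 64.2 and 37.2 CPM, and with RUNXi 7.76, 18.0, 13.2 and 13.2 CPM. All 4 DDR1i libraries lay above all control libraries, and all 4 RUNXi libraries lay below all control and all collagen libraries. The mean was 47.4 ± 11.8 CPM (SD, n = 4) with DDR1i and 13.0 ± 4.19 CPM (SD, n = 4) with RUNXi, and the log2 difference between them was 1.87 (standard error 0.21), a 3.65-fold difference. Against the 3 collagen libraries it was 1.05 (standard error 0.23) with DDR1i and -0.82 (standard error 0.22) with RUNXi. Against the control it was 0.75 (standard error 0.21) and -1.12 (standard error 0.22). The DDR1i and collagen ranges overlapped once collagen replicate 3 was counted, and the log2 difference with it included was 0.69.

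*TINAGL1* encodes a secreted matrix glycoprotein of the tubulointerstitial nephritis antigen family that binds integrins (chromosome 1, 32042086 to 32053287, GRCh37, plus strand, canonical transcript of 2207 bases). The control libraries had 90.7, 97.3, 99.0 and 67.3 CPM, and the collagen libraries 89.1, 97.2, 84.5 and 77.8 CPM in replicates 1 to 4. The DDR1i libraries had 104, 89.1, 92.6 and 94.4 CPM, within or just above those ranges, and the RUNXi libraries 39.3, 42.6, 38.7 and 57.2 CPM, below every other library. The ranges of the 3 groups without RUNXi overlapped, and the RUNXi range overlapped with none of them. The log2 difference of DDR1i against RUNXi was 1.10 (standard error 0.14), a 2.14-fold difference. RUNXi against collagen gave -0.99 (standard error 0.14) and RUNXi against control -0.99 (standard error 0.15), whereas DDR1i against either reference gave 0.11 (standard errors 0.15 and 0.14). The large value of *TNC* between the inhibitors therefore had a part on each side of the references, and that of *TINAGL1* nearly all on the RUNXi side. Neither gene was chosen on collagen against control, where *TNC* had a log2 difference of -0.29 (adjusted p = 0.595) and *TINAGL1* of 0.00 (adjusted p = 1), both from edgeR's quasi-likelihood test.

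**Figure D1:**
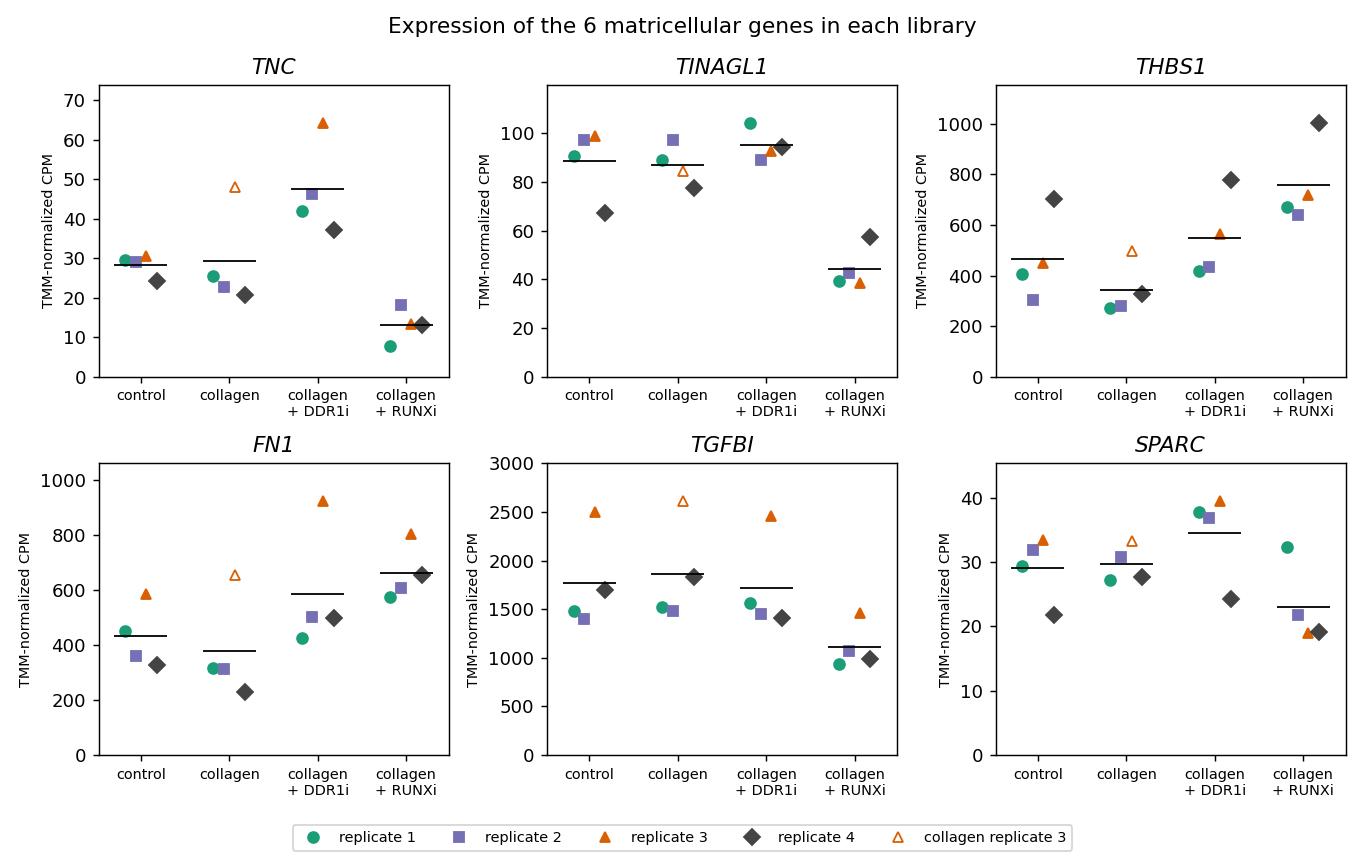
TMM-normalized CPM of each gene (vertical axis, from 0) in the 16 libraries by group (horizontal axis), with symbols for the replicate number, an open triangle for collagen replicate 3 and a line at the mean of all 4 libraries. *TNC*, *TINAGL1*, *TGFBI* and *SPARC* had their lowest values in the RUNXi group, and replicate 3 was the highest library of *FN1* and *TGFBI* in 4 of 4 groups.

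*THBS1* encodes thrombospondin 1, a trimeric glycoprotein that inhibits angiogenesis (chromosome 15, 39873280 to 39891667, GRCh37, plus strand, canonical transcript of 7789 bases). The control libraries had 406, 302, 448 and 701 CPM, and collagen replicates 1, 2 and 4 had 272, 279 and 328 CPM, with 497 CPM in collagen replicate 3. The DDR1i libraries had 419.5, 435, 564 and 779 CPM and the RUNXi libraries 671, 639.9, 718 and 1004 CPM. All 4 RUNXi libraries lay above all 4 collagen libraries, while the DDR1i libraries lay above the collagen libraries only with replicate 3 left out. Against collagen, *THBS1* rose with DDR1i by a log2 difference of 0.91 (standard error 0.20, adjusted p = 0.0287, edgeR) and with RUNXi by 1.37 (standard error 0.20, adjusted p = 0.00289, edgeR). Against the control, the values were 0.25 (adjusted p = 0.998, edgeR) and 0.71 (adjusted p = 0.616, edgeR). *FSIP1*, whose gene overlaps *THBS1* on the other strand, had 877 counts over all libraries against at least 3781 for *THBS1* in each.

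*FN1* encodes fibronectin, which assembles into fibrils that integrins bind (chromosome 2, 216225163 to 216300796, GRCh37, minus strand, canonical transcript of 8390 bases). The control libraries had 452, 360.0, 587 and 327 CPM, and collagen replicates 1, 2 and 4 had 317, 314 and 228 CPM, with 656 CPM in collagen replicate 3. The DDR1i libraries had 426, 503, 924 and 499 CPM and the RUNXi libraries 577, 609, 804 and 654 CPM. With collagen replicate 3 left out, every DDR1i and RUNXi library lay above every collagen library, and collagen replicate 3 itself lay inside both inhibitor ranges. Against collagen, *FN1* rose by a log2 difference of 1.03 with DDR1i (standard error 0.24, adjusted p = 0.0389, edgeR) and of 1.20 with RUNXi (standard error 0.24, adjusted p = 0.0198, edgeR). Against the control, the values were 0.45 with DDR1i (adjusted p = 0.998, edgeR; 0.15 without DDR1i replicate 3) and 0.62 with RUNXi (adjusted p = 0.632, edgeR).

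Of the 4 members tested, 2 (*THBS1* and *FN1*) passed the test against collagen with each inhibitor, both higher. Over all tested genes, 2.47% passed with DDR1i (1.69% higher) and 4.05% with RUNXi (2.59% higher). Both inhibitors were compared with the same collagen libraries. Against the control, 0 of the 4 passed with either inhibitor, where 0.212% of all genes passed with DDR1i and 0.401% with RUNXi. At an unadjusted p under 0.05, 0 members were past it with DDR1i and 3 with RUNXi against the control, beside 678 and 900 of 13213 genes, and DESeq2 called 0 members for each. With replicate number as a block, *THBS1*, *FN1* and *TGFBI* passed with RUNXi against the control (162 of 13213 genes did) and no member with DDR1i (116 did).

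In the fits without replicate number as a block, the calls of *THBS1* and *FN1* depended on which collagen libraries were used. With collagen replicate 3 included, *THBS1* was past the threshold with RUNXi (log2 difference 1.12, adjusted p = 0.0351, edgeR) but not with DDR1i (0.67, adjusted p = 0.457, edgeR), and *FN1* with neither (0.79, adjusted p = 0.359, and 0.63, adjusted p = 0.618, edgeR). Without collagen replicate 4, neither gene was called with either inhibitor: the adjusted p of *THBS1* was 0.171 for DDR1i and 0.0635 for RUNXi, and that of *FN1* 0.259 and 0.173 (edgeR). With DDR1i, *THBS1* was called in 7 and *FN1* in 4 of 11 fits made with 1 library removed at a time, and without collagen replicate 1 or 2 neither was. *THBS1* also lost its call without DDR1i replicate 3 (adjusted p = 0.0963, edgeR), and *FN1* without DDR1i replicate 2 or 4 and RUNXi replicate 2 or 4 (adjusted p from 0.0516 to 0.0671, edgeR). With RUNXi, each was called in 10 of these 11 fits. When replicate number was a block, both genes were called with each inhibitor, with collagen replicate 3 left out or included. With it left out, 537 of 13548 genes were called with DDR1i and 759 with RUNXi. With it included, 73 of 13361 and 178 were. The block fit that included collagen replicate 3 was added after seeing the data.

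Transcript length moved with these differences. The 818 tested genes with canonical transcripts of 7000 to 9000 bases, the range that holds *THBS1*, *FN1* and *TNC*, had a median log2 difference against collagen of 0.28 with DDR1i and 0.30 with RUNXi, and 6.48% and 11.4% of them passed the test. The 3665 genes of 2000 to 3500 bases, which include the other 3 members, had medians of -0.06 with each and 1.01% and 1.75% passed. With the trend of expression with length removed from each library, *THBS1* was called with RUNXi (log2 difference 1.09, adjusted p = 0.0472, edgeR) and not with DDR1i (0.61, adjusted p = 0.252, edgeR), and *FN1* with neither (0.94, adjusted p = 0.0674, and 0.74, adjusted p = 0.146, edgeR). *TNC* with RUNXi lay on the other side of its length class, and in DDR1i against RUNXi the class of *TNC* had a median of 0.00. With the trend removed, the log2 difference of *TNC* against collagen went from 1.05 to 0.74 with DDR1i and from -0.82 to -1.105 with RUNXi.

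**Figure D2:**
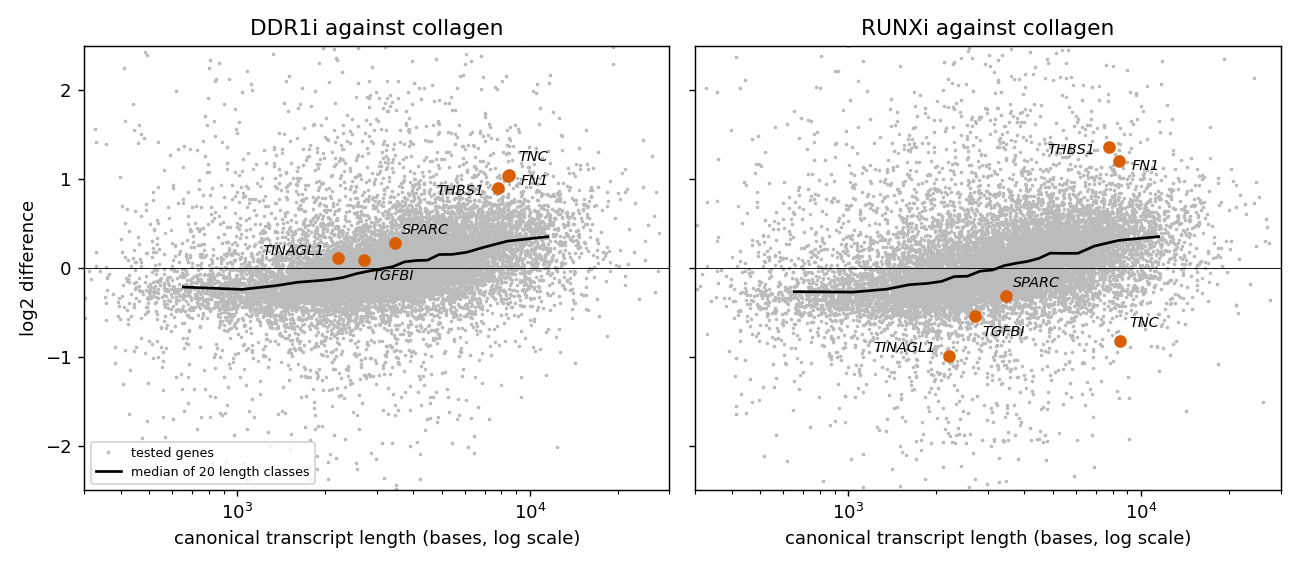
Log2 difference against collagen (vertical axis) by canonical transcript length in bases (horizontal, log scale), with DDR1i (left) and RUNXi (right), for tested genes as grey points, the median of 20 length classes as a line, and the 6 members in orange. *THBS1*, *FN1* and *TNC* are long and lie above the line with DDR1i, and *TNC* lies below it with RUNXi. A few points beyond the axes are not drawn.

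*TGFBI* encodes a matrix protein that binds collagens and integrins (chromosome 5, 135364677 to 135399507, GRCh37, plus strand, canonical transcript of 2712 bases). It had the highest level of the 6 genes, with 1480.05, 1399.5, 2505 and 1693 CPM in the control libraries and 1522, 1482, 2609.8 and 1828 CPM in collagen replicates 1 to 4. The DDR1i libraries had 1568, 1449, 2459 and 1404 CPM and the RUNXi libraries 936, 1067, 1459 and 988 CPM. Every RUNXi library lay below every collagen library, with replicate 3 counted or not, while the RUNXi range reached into the control and DDR1i ranges through RUNXi replicate 3. The log2 difference of RUNXi against collagen was -0.54 (standard error 0.18, adjusted p = 0.0906, edgeR), which missed the threshold, and it was past it without DDR1i replicate 3 (adjusted p = 0.0298, edgeR) or RUNXi replicate 3 (adjusted p = 0.0416, edgeR). RUNXi against control gave -0.67 (standard error 0.22, adjusted p = 0.505, edgeR), and DDR1i gave 0.09 against collagen and -0.03 against control (adjusted p = 0.867 and 0.998, edgeR).

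*SPARC* encodes osteonectin, a calcium- and collagen-binding glycoprotein (chromosome 5, 151040657 to 151066536, GRCh37, minus strand, canonical transcript of 3451 bases). The control libraries had 29.5, 31.9, 33.4 and 21.8 CPM and the collagen libraries 27.2, 30.7, 33.3 and 27.7 CPM. The DDR1i libraries had 37.8, 36.8, 39.5 and 24.3 CPM and the RUNXi libraries 32.4, 21.7, 19.0 and 19.1 CPM. The ranges of all 4 groups overlapped, because DDR1i replicate 4 was low and RUNXi replicate 1 high. Neither inhibitor passed against collagen, with log2 differences of 0.28 for DDR1i and -0.31 for RUNXi (standard error 0.20 for each, adjusted p = 0.524 and 0.394, edgeR), nor against the control (0.26 and -0.33, adjusted p = 0.998 and 0.817, edgeR). A p that misses the threshold does not show that the levels were alike.

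Collagen alone was compared with the control in all 6 genes. None passed, and 0 of 13092 tested genes did (0%), although 1754 had an unadjusted p under 0.05 and DESeq2 called 415. Among the members, *THBS1* had a log2 difference of -0.66 (standard error 0.21, adjusted p = 0.201, edgeR) and *FN1* of -0.58 (standard error 0.18, adjusted p = 0.182, edgeR), each with an unadjusted p under 0.05. *FN1* was below every control library in collagen replicates 1, 2 and 4 but not in replicate 3. *TGFBI* had -0.13 and *SPARC* -0.02 (adjusted p = 0.83 and 0.985, edgeR). DESeq2 called *THBS1* (adjusted p = 0.0457), and no other member. Genes of 7000 to 9000 bases had a median of -0.30 in this comparison.

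**Figure D3:**
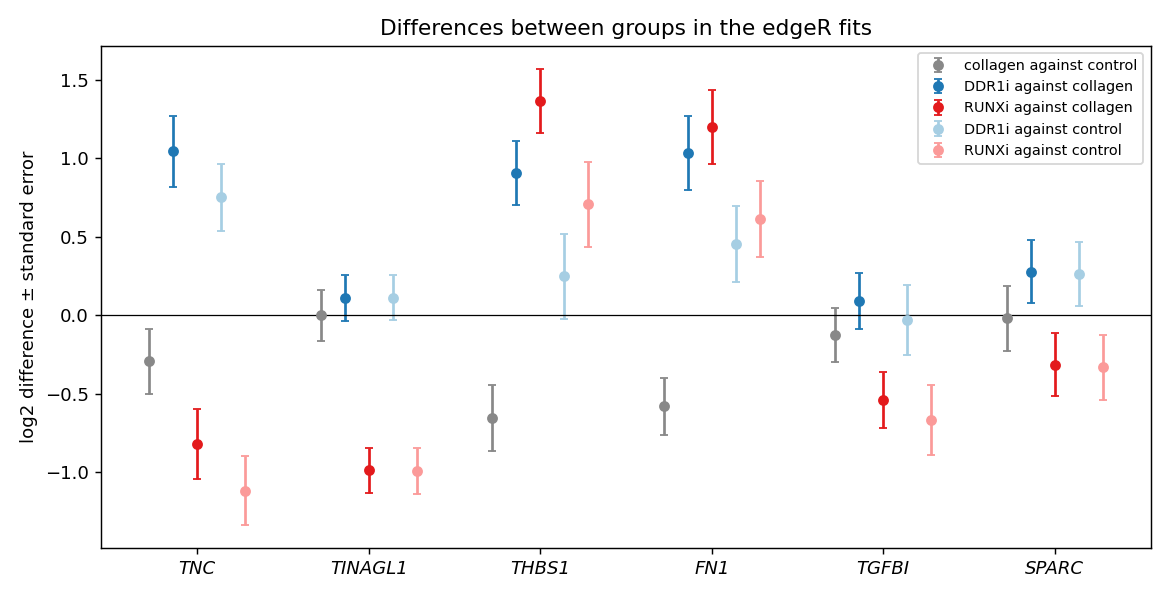
Log2 difference of each gene (points) with its standard error (bars) from the edgeR fits in 5 comparisons (colours); the vertical axis is in log2 units and the line marks 0. *THBS1* and *FN1* were higher against collagen than against control with both inhibitors, and *TINAGL1* was near -0.99 with RUNXi against either reference.

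The libraries numbered 3 tended to be high. Replicate 3 was the highest library of its group in 4 of 4 groups for *FN1* and *TGFBI* and in 3 of 4 for *TNC* and *SPARC*, whereas for *THBS1* replicate 4 was the highest in 3 of 4. Collagen replicate 3, the library the authors removed, was not alone in this: for *TGFBI* it had 2609.8 CPM beside 2505 CPM in control replicate 3 and 2459 CPM in DDR1i replicate 3. The deposited labels do not say what a replicate number shares.

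A ratio of 2 genes within a library does not depend on scaling between libraries. The number of *THBS1* reads per *TINAGL1* read was 4.48, 3.10, 4.52 and 10.4 in the control libraries and 3.06, 2.87, 5.88 and 4.22 in the collagen libraries. With DDR1i it was 4.02, 4.88, 6.09 and 8.25, and with RUNXi 17.1, 15.02, 18.6 and 17.5, so that the RUNXi libraries lay above all 12 others. For *FN1* per *TINAGL1* the RUNXi libraries had 14.7, 14.3, 20.8 and 11.4, and the highest of the other libraries was 9.97 (DDR1i replicate 3). These pairs were taken after the values had been seen and include a gene that was selected on them, so no test was made.

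**Figure D4:**
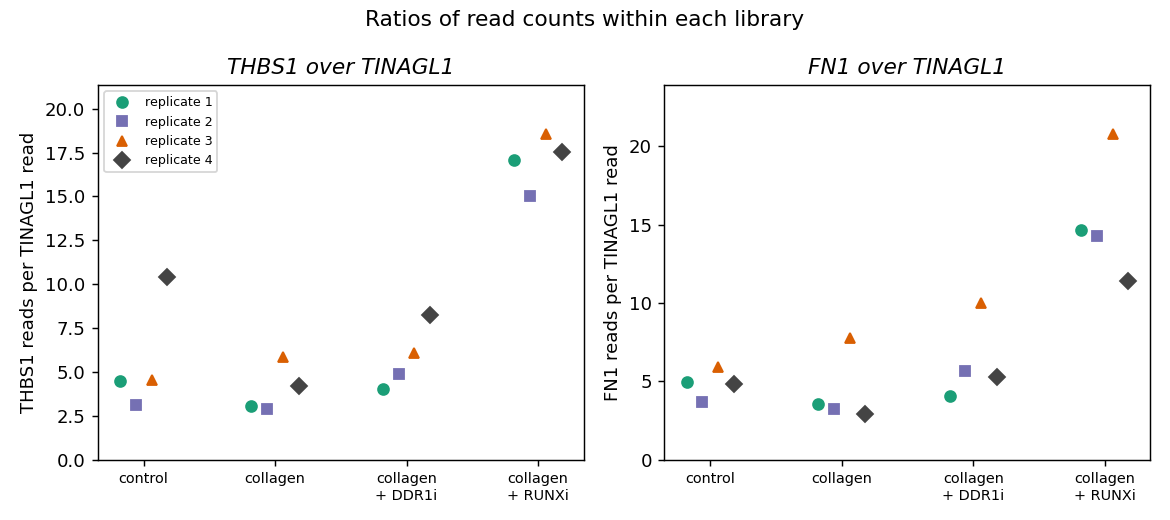
Reads of *THBS1* (left) and *FN1* (right) per read of *TINAGL1* in each library (vertical axes, from 0) by group (horizontal axis), with symbols for the replicate number. The 4 RUNXi libraries, from 15.02 to 18.6 for *THBS1* and from 11.4 to 20.8 for *FN1*, lie above the other 12.

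Levels of the 6 genes can be compared only per length. As mean CPM per 1000 bases of canonical transcript, *TGFBI* was the highest in every group (652 in the control, 686 with collagen, 634 with DDR1i and 410 with RUNXi). *THBS1* (59.6, 44.2, 70.6 and 97.3) and *FN1* (51.4, 45.2, 70.1 and 78.8) followed, and their ranges overlapped in every group. *TINAGL1* (40.1, 39.5, 43.1 and 20.1) overlapped with them in the control and collagen groups and lay below both with DDR1i and RUNXi. *SPARC* (8.44, 8.62, 10.0 and 6.68) and *TNC* (3.33, 3.44, 5.57 and 1.53) were the lowest, and only with DDR1i did their ranges overlap.

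The genes whose log2 CPM over the 16 libraries was most like that of *TNC* included *CCDC80* (Pearson r = 0.888), *CAMK2N1* (0.866), *MCF2L2* (0.861) and *PCDH1*, a protocadherin (0.856), out of 13517 genes compared. For *TINAGL1* they included *DHRS3*, a retinaldehyde reductase (0.914), *DDB2*, a DNA damage recognition protein (0.893), *THBD*, thrombomodulin (0.874) and *PCDH1* (0.866). *PCDH1* stood in both lists, and had its highest mean with DDR1i (66.3 CPM) and its lowest with RUNXi (29.7 CPM). *DHRS3* differed from *TINAGL1* in that its mean was 26.7 CPM with collagen, 16.8 CPM with DDR1i and 4.43 CPM with RUNXi. Between *TNC* and *TINAGL1* r was 0.802, but both were selected on the same difference in these libraries, so that nothing is read from it. The points share libraries and treatment groups, so that these values only describe likeness.

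Of 32 other matricellular genes, 18 were tested against collagen, where 2.47% of all genes passed with DDR1i and 4.05% with RUNXi. With DDR1i 0 passed, and with RUNXi *SMOC1*, a calcium-binding relative of SPARC, rose (log2 difference 1.36, standard error 0.17, adjusted p = 7.13e-05, edgeR) and *LGALS1*, which encodes galectin 1, fell (-0.54, adjusted p = 0.0294, edgeR). The level of *SMOC1* was 60.9, 60.0, 56.1 and 85.6 CPM with RUNXi and between 23.5 and 36.6 CPM in the other 12 libraries, and it also rose against the control (1.20, adjusted p = 0.0009, edgeR). *LGALS1* lost its call with collagen replicate 3 included (adjusted p = 0.075, edgeR), where *SMOC1* kept it (adjusted p = 3.53e-05, edgeR). With the length trend removed, *LGALS1* also lost its call (-0.41, adjusted p = 0.0893, edgeR) and *SMOC1* kept it (1.31, adjusted p = 9.67e-05, edgeR). DDR1i against RUNXi gave -1.08 for *SMOC1* (adjusted p = 0.000331, edgeR) and 0.72 for *LGALS1* (adjusted p = 0.00297, edgeR), where 0.568% of all genes passed. The median log2 difference of the list was 0.20 with DDR1i and 0.16 with RUNXi against collagen, beside 0.00 and 0.01 over all genes.

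Of 20 receptors of these proteins, 17 were tested against collagen. *ITGA6*, the α6 integrin subunit, rose with DDR1i (log2 difference 0.44, adjusted p = 0.0471, edgeR), and 5 rose and 0 fell with RUNXi, beside 1.69% and 2.59% of all genes that rose. Among those, *ITGB8*, an integrin subunit that binds latent TGF-β, had 1.19 (standard error 0.19, adjusted p = 0.000939, edgeR), *ITGA6* 0.59 (adjusted p = 0.0106, edgeR) and *ITGB5* 0.48 (adjusted p = 0.0205, edgeR). *ITGB8* had 53.9, 43.4, 45.5 and 50.4 CPM with RUNXi and between 15.9 and 39.5 CPM in the other 12 libraries, and it kept its call with collagen replicate 3 included (adjusted p = 0.000936, edgeR). With that library, 0 of 16 receptors were called with DDR1i and 1 with RUNXi, beside 6 and 31 of 13361 genes that rose. After removal of the length trend, 0 and 2 of 17 were called, beside 34 and 79 of 13000 genes that rose. By DESeq2, 6 and 6 of 19 were called, beside 504 and 639 of 17856 genes that rose. The median log2 difference over the list was 0.42 with DDR1i and 0.24 with RUNXi against collagen, beside 0.00 and 0.01 over all genes. It was 0.24 and 0.14 with collagen replicate 3 included, and 0.20 and 0.12 with the length trend removed. *ITGB8* was lower with DDR1i than with RUNXi (-0.77, adjusted p = 0.0288, edgeR). Against the control, *ANXA2*, annexin A2, which binds tenascin C, rose with DDR1i (0.36, adjusted p = 0.0484, edgeR) but was not called with the length trend removed (0.21, adjusted p = 0.68, edgeR), and no receptor passed with RUNXi.

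Of 11 TGF-β ligands, receptors and SMAD genes, all were tested and 1 passed. *SMAD3*, a transducer of TGF-β signals, rose with DDR1i against collagen (log2 difference 0.72, adjusted p = 0.0196, edgeR), where 1.69% of all genes rose. It did not pass with collagen replicate 3 included (adjusted p = 0.454, edgeR) or with the length trend removed (0.48, adjusted p = 0.132, edgeR). The list had medians of 0.06 with DDR1i and 0.14 with RUNXi against collagen, beside 0.004 and 0.005 over all genes. The transcripts of the inhibitor targets themselves, *DDR1*, *RUNX1* and *CBFB*, passed in none of the 6 comparisons. Both inhibitors act on protein, so that these transcripts do not check the labels. *KRT14*, a basal keratin, fell with DDR1i (-0.90 against collagen, adjusted p = 0.00123, and -0.79 against control, adjusted p = 0.000616, edgeR). *KRT5*, another basal keratin, did not pass with DDR1i (-0.31 against collagen, adjusted p = 0.153, and -0.26 against control, adjusted p = 0.415, edgeR). The sum of the epithelial markers, which includes *KRT14*, lay between 10061 and 13105 CPM with DDR1i and between 14633 and 18351 CPM in the control. The fibroblast sum ranged from 9.02 to 28.8 CPM in the control, 10.8 to 32.9 with collagen, 5.42 to 17.4 with DDR1i and 7.52 to 20.3 with RUNXi. Their part in the differences of the 6 genes was not tested, and in bulk libraries fewer cells of a kind and less RNA per cell cannot be told apart.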

How the data were processed

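RNA-seq was performed on 16 MCF10A libraries in 4 groups. The authors aligned reads to hg19 (GRCh37) with STAR and deposited raw counts per gene, with no normalization. The counting tool, annotation and use of strand are not given in the sources used here, so that counts of overlapping genes are uncertain.

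All 26475 entries were read. Genes were tested with edgeR 4.0.16 in R 4.3.3 (TMM scaling, filterByExpr and a robust quasi-likelihood fit). P-values were adjusted over all tested genes by the Benjamini-Hochberg method, and the threshold was 0.05. Inhibitors were compared with collagen in 11 libraries (13548 genes), collagen with the control in 7 (13092) and inhibitors with the control in 12 (13213). The biological coefficients of variation were 0.287, 0.353 and 0.310. Collagen replicate 3 was left out, as by the authors. No pair of replicates agreed within sampling noise (lowest chi-square per degree of freedom 18.7). Log2 CPM used a prior count of 2. Standard errors came from the log2 difference and its F statistic. Positions and lengths came from GENCODE v44 lifted to GRCh37, and promoters from RefSeq. Of 26473 distinct names, 22606 matched by current and 1329 by older symbols. On simulated data for DDR1i against collagen (13275 genes), 135 of 196 changed genes were called, 0 in the wrong direction, with 4 unchanged genes. The simulated counts held no length trend and no spread shared by replicate number, so that error from either is not measured by them.

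Alternatives covered DESeq2 1.42.0, its size factors, no filter, collagen replicate 3 included, all groups in one fit, a replicate block, the length trend removed (spline with 4 degrees of freedom) and each library left out. Control replicates 2 and 3 left out, and the block with collagen replicate 3, were added after seeing the data. Named were the 6 genes, the inhibitor targets, the 5 genes most like *TNC* and *TINAGL1*, and per list and comparison at most the 3 called genes of smallest adjusted p in each direction; marker genes, *FSIP1* and pairs in ratios were chosen otherwise, the last 2 after values were seen. Of the genes that this rule names, not all are reported here. The 6 genes and all lists were chosen with earlier results of these data known. Tables and plots were made with pandas 2.3.3 and matplotlib 3.10.9 under Python 3.11.15.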

Additional observations from a re-analysis of the deposited data

Results flagged for a closer look

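Among 24 sets of 4 values (6 genes in 4 groups), 2 had a library far from the others by Dixon's ratio of gap to range, at its 95% critical value for 4 values. Chance alone would give about 1.2 in 24. In the DDR1i group, replicate 3 was the highest library for *FN1* (924 CPM, ratio 0.846) and for *TGFBI* (2459 CPM, ratio 0.845). The same number was the highest of its group for both genes in 4 of 4 groups, and what it shares was not tested. Without DDR1i replicate 3, *FN1* was still called with DDR1i against collagen, *THBS1* was not (adjusted p = 0.0963, edgeR), and *TGFBI* passed the test with RUNXi against collagen (adjusted p = 0.0298, edgeR).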

How the results depend on the processing

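Log2 differences of DDR1i against RUNXi stayed between 1.68 and 2.07 for *TNC* and between 1.04 and 1.25 for *TINAGL1* over 19 alternatives. Both genes were selected on this comparison, and some alternatives removed only collagen libraries, so that these ranges are a description and no support. The number of members called against collagen with DDR1i (2 of 4) was 0 with collagen replicate 3 included, with the length trend removed and with all groups in one fit, and from 0 to 2 with 1 library left out. Over all genes, the first of these fits called 9 of 13361, the second 161 of 13000 and the third 233 of 13731. With 1 library left out, from 60 of 13415 to 662 of 13468 genes were called. With RUNXi (2 of 4) it was 1 with collagen replicate 3 included, 1 with the length trend removed, 3 with no filter on low counts (*TGFBI* added, adjusted p = 0.00216, edgeR) and from 0 to 3 with 1 library left out. For collagen against control (0 of 6) it was 1 with DESeq2 (*THBS1*) and 2 with no filter on low counts (*THBS1*, adjusted p = 0.00367, and *FN1*, adjusted p = 0.0163, edgeR). The cause was not tested.

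With the replicate block, 3 of 4 members were called for RUNXi against control (0 without it): *THBS1* (0.75, adjusted p = 4.82e-05), *FN1* (0.64, adjusted p = 0.00218) and *TGFBI* (-0.65, adjusted p = 5.61e-05), and *TGFBI* for RUNXi against collagen (-0.72, adjusted p = 0.000592, edgeR). With the block and collagen replicate 3 included, the calls against collagen were 2 for DDR1i (*THBS1*, adjusted p = 0.0274, and *FN1*, 0.0243, edgeR) and 3 for RUNXi (*THBS1*, 0.000106, *FN1*, 0.00119, and *TGFBI*, 0.000437, edgeR), so that the loss of calls with that library held in the fit without the block. Same-numbered libraries had correlations of deviations from -0.093 to 0.276, over 0.1 in 7 of 21 pairs. The main fits did not take the numbers as pairs. Own numbers nevertheless correlated best in 31 of 42 comparisons of a library with another group. That is more often than if the numbers shared nothing, where each library of the other group would be equally likely. The unpaired main fits may thus leave in a spread that same-numbered libraries share, and its source was not tested.

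Values that changed sign lay between -0.29 and 0.25 in the main fits, and none had been called. *TNC* in collagen against control (-0.29) was 0.056 with collagen replicate 3. *TGFBI* in the same comparison (-0.13) was 0.083 with the block, 0.082 with collagen replicate 3, 0.082 with both, 0.03 without control replicates 2 and 3, and -0.23 to 0.085 with 1 library left out. *SPARC* (-0.02) was 0.065, 0.04, 0.052, 0.16 and -0.14 to 0.051 under the same settings. *TGFBI* with DDR1i against collagen (0.09) was -0.10, -0.12 and -0.12 with the block, collagen replicate 3 and both, and -0.13 to 0.20 with 1 library left out. With DDR1i against control (-0.03) *TGFBI* was 0.11 without control replicates 2 and 3 and -0.25 to 0.18 with 1 library left out, and *THBS1* (0.25) was -0.014 without those 2. *TINAGL1* in collagen against control (0.00) had no direction, and ranged from -0.20 to 0.16, and with DDR1i against control (0.11) it was -0.037 with the length trend removed. Over 628 values of single genes under an alternative, 574 were counted as unchanged. For tested values this meant the same direction and side of the threshold. For values without a test it meant a shift smaller than the SD of log2 CPM within groups, whatever the sign. Depth limited *TNC* and *SPARC* most, with counting error of 7.27% and 5.79% at their lowest counts.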
